A study of Mus musculus with 2 samples.

Results

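Spermatids at the Prss58 stage are haploid germ cells early in elongation, when the nucleus begins to condense and the flagellum, acrosome and perinuclear theca are being built. They were chosen by measured values, as the barcodes in which the trypsin-like serine protease genes Prss58 and Prss51 and the predicted gene Gm136 together stood highest among 10 sets of 3 stage genes, lettered A to J from spermatocytes to late spermatids, with this set as G. Of 12768 barcodes in the tables, 9669 carried fewer than 2 of 10 screening genes of other cells (Insl3, Cyp17a1, Cst9, Cldn11, Crabp1, Dmrt1, Prdm9, Rad51ap2, C1qa and C1qb), and 1051 of those were members, 590 in WT and 461 in KO.

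The study asked what loss of ALKBH5, an RNA demethylase that removes N6-methyladenosine (m6A) from mRNA, does to cells of the mouse testis. It profiled testis of 12-week-old C57BL/6 mice that were wild type (WT) or homozygous for a global Alkbh5 knockout (Alkbh5-/-, KO) obtained by crossing heterozygotes. Each genotype has 1 single-cell library of unique molecular identifier (UMI) counts, the labels do not say how many animals entered it, and the study's text can be read as 1 or several mice for each. With 1 library per genotype no difference between WT and KO could be tested, and every interval given here is a 95% interval that covers counting error only.

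In elongating spermatids transcription winds down while chromatin is rebuilt: histones give way to transition proteins and then to protamines, and many mRNAs are stored in ribonucleoprotein particles and translated later. The X and Y chromosomes are silenced in meiosis, and in round spermatids some X-linked genes, several in multicopy families, are transcribed again. m6A marks in mRNA affect its splicing, export, translation and decay, and in male germ cells ALKBH5 is known to be needed for correct splicing and stability of transcripts of spermatocytes and round spermatids.

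Alkbh5 itself had 607 UMIs in the whole WT library and 5 in the whole KO library, as the labels give the genotypes. In the Prss58-stage cells it had 5 UMIs in WT and 1 in KO, too few to compare, as a sum of 0 would still allow 3 counts. The libraries held 80283221 UMIs over 5756 barcodes in WT and 82056760 over 7012 in KO, and members had a median of 11339.5 and 9755 UMIs and of 2230 and 2153 detected genes. When every cell was thinned to 6103 UMIs, which left out 39 WT and 66 KO cells, the median was 1620 and 1658 genes. Scrublet called 21 WT and 15 KO members doublets, and these were kept. The libraries shared 45 barcode sequences, of which 6 were carried by members and 0 by a member in both libraries.

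Members made up 10.9% (10.1 to 11.8) of the 5391 WT barcodes that passed the screen and 10.8% (9.86 to 11.7) of the 4278 in KO. Over all barcodes the shares were 10.3% and 6.57%, since the screen left out 365 WT barcodes and 2734 KO barcodes. Among the barcodes that passed the screen, the share at this stage was therefore nearly the same in the libraries. The stage before it (F, set by Cst13, Fam71b and Tssk2) held 239 and 303 cells and the stage after it (H, set by Tnp2, Tex37 and Cstl1) 650 and 425. The screen also removes germ cells with spermatogonial or early meiotic genes, so these barcodes are not all germ cells of the libraries. With z-scores taken within each library the share was 11.4% in WT and 9.51% in KO.

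The genes that chose the cells had similar levels in both genotypes. Prss58 (chr6:40895270-40900387, minus strand, GRCm38) gave 9759 UMIs in WT and 6493 in KO, which are 1245 and 1181 counts per 1000000 UMIs of the members (CPM). Prss51 (chr14:64086234-64097678, plus strand) stood at 399 and 396 CPM and Gm136 (chr4:34743784-34756263, minus strand) at 722 and 682 CPM. All 3 genes were detected in 589 of 590 WT and 450 of 461 KO members. These values describe how the cells were picked and support nothing beyond that. A Prss58 UMI was found in 10.3% (5.06 to 18.1) of 97 WT and 7.16% (5.18 to 9.58) of 573 KO barcodes with both spermatogonial markers Crabp1 and Dmrt1. The median depths of these barcodes were 8735 and 7544 UMIs. Whether these Prss58 UMIs came from free RNA or from doublets was not tested.

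The stage is a slice of a continuous order and not a separate cluster. Prss58 was already at 973 CPM in stage F and still at 758 CPM in stage H of WT, and the set of stage H was the next highest in 367 of 590 WT and 288 of 461 KO members. The 60 WT members whose score lay within 0.05 of the next set had 1111 CPM of Prss58, and the 47 WT cells that missed membership by less than 0.05 had 1206 CPM. In KO the 41 cells just inside had 1150 CPM and the 44 just outside 1236 CPM, so the cells on both sides of the boundary were alike in the gene that names the stage.

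The label was checked with genes that are in none of the 10 sets. Prm1, the main protamine gene, was at 92275, 117403 and 153254 CPM in stages F, G and H of WT and at 84387, 108157 and 136317 CPM in KO. Tnp1, a transition protein gene, followed the same order at 10607, 13451 and 17916 CPM in WT and 9958, 12463 and 15472 CPM in KO. Cypt4, of a family of basic proteins of the perinuclear theca, went from 6876 CPM in stage F to 2629 in G and 591 in H. Hils1, a spermatid linker histone gene, had 5273 and 5056 CPM in stages F and G and 1995 CPM in H.

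**Figure D1:**
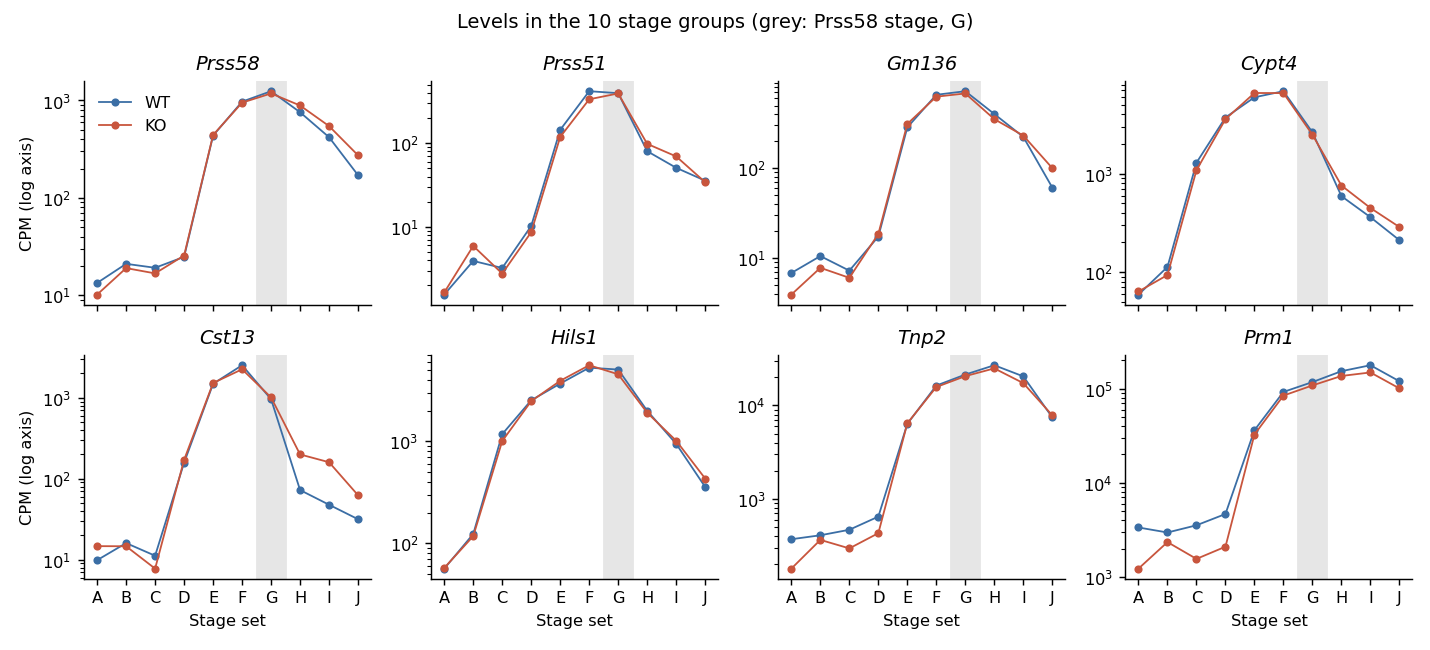
Level of 8 genes (CPM, log axis) in the cells of each stage set A to J, in WT (blue) and KO (red), with the Prss58 stage in grey; each point is 1 library's sum over cells. Prss58, Prss51, Gm136, Cst13 and Tnp2 are genes of the stage sets, so their course restates the rule; of the genes outside the sets, Cypt4 has passed its peak in the Prss58 stage and Prm1 still climbs, to 153254 CPM in stage H of WT.

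Against stage F, 1 of 5209 genes was at least 2-fold higher in the members in both libraries (0.0192%) and 457 were at least 2-fold lower (8.77%). Against stage H, 380 of 4570 genes were at least 2-fold higher (8.32%) and 0 were at least 2-fold lower in both libraries (0%). The rule used these cells, so the counts describe its slice and are no test. Outside the stage sets, Scamp1, a secretory carrier membrane protein gene, was at 368 CPM in stage F of WT and 101 CPM in the members, and Ccer1, a coiled-coil protein gene of spermatids, at 465 and 122 CPM.

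The transcripts that stood above both neighbouring stages, F and H, did so narrowly. Phf7, which encodes a chromatin reader needed for histone removal in spermatids, was at 1671, 2088 and 1561 CPM in stages F, G and H of WT and 1820, 2153 and 1838 CPM in KO. Spata19, for a mitochondrial protein of the sperm midpiece, was at 4002, 4938 and 3752 CPM in WT. Snrpd2, a core protein of spliceosomal particles, was at 1040, 1243 and 951 CPM in WT, and the ribosomal protein gene Rpl13 at 1178, 1495 and 929 CPM. The 15 genes with the largest fold over both neighbours also held Sqor, Rabac1, Cdc34, Kctd16, Aspscr1, Tmem269 and Cypt1. Tmem269 is a gene of stage set I, so the rule used it, and the later stages I and J were not part of this ranking.

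Within the stage, members were split by their next highest set, which is again a choice by measured values. The 119 WT members next to stage F had 5653 CPM of Cypt4, which is in no set, against 1529 CPM in the 367 next to stage H. In KO the 98 members next to F had 4881 CPM and the 288 next to H had 1571 CPM. Prm1 went the other way, from 100036 to 124481 CPM in WT and from 98671 to 113228 CPM in KO.

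Between genotypes, 4810 genes had a mean of at least 10 CPM and were compared. Of these, 214 were at least 2-fold higher in KO (4.45%) and 58 at least 2-fold lower (1.21%), with a median log2 ratio of KO over WT of -0.01. Lists of genes for spermatid construction had median log2 ratios near 0, although several of their X-linked members were past 2-fold. By summed CPM the perinuclear theca list was at 15964 in WT and 20607 in KO. The testis histone list was at 6445 and 8214 CPM and the nuclear condensation list at 197899 and 183529 CPM. Genes on the X chromosome stood about 2-fold higher as a group.

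The counts of each role are to be read against those overall shares of 4.45% higher and 1.21% lower. In lists this short, 0 calls is near those shares and is no result about the list. Some genes of these lists, such as Tnp2, Tssk2, Tssk6, Prss58 and Prss51, are in the stage sets, so their levels partly restate the rule. Cells of both libraries were picked by the same stage genes. How far this evens out other transcripts that follow the stage was not tested. Genes of nuclear condensation had almost equal levels, with 0 of 7 at 2-fold in either direction and a median log2 ratio of -0.12. Prm1 had 920125 UMIs in WT and 594820 in KO, a log2 ratio of -0.12 (-0.12 to -0.11). Tnp1, the other transition protein gene, stood at 13451 and 12463 CPM and Tnp2 at 21405 and 20572 CPM. Prm3, for a small protein of spermatids, was lowest of the 7 at 3094 and 2450 CPM, or -0.34. All 7 lay slightly below 0. The wider list of markers of the order of elongation had 0 of 28 past 2-fold and a median of -0.12, from -0.54 for Spata46 to 0.90 for X-linked Cypt1.

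Among testis histones and histone replacement factors, 2 of 12 were at least 2-fold higher and 0 lower, with a median of 0.01, beside 4.45% and 1.21% of all genes. Both were X-linked: H2al3, for an H2A-like histone, was at 911 and 2147 CPM (log2 ratio 1.24, 1.20 to 1.28) and H2al1n at 134 and 392 CPM (1.55, 1.45 to 1.66). H2al1n belongs to a family of near-identical copies, so its counts are uncertain. H2afb1, an X-linked short H2A histone gene, was at 1994 and 2193 CPM. Without the X-linked genes the list's median was -0.20, with Chd5, for a chromatin remodeller of the histone exchange, at 73.7 and 59.5 CPM.

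Fibrous sheath and outer dense fibre genes had 0 of 20 at 2-fold and a median of -0.02. Akap4, the X-linked main component of the fibrous sheath, was at 2654 and 3014 CPM, or 0.18 (0.15 to 0.21). Its partner Akap3 on chromosome 6 was at 821 and 566 CPM, or -0.54 (-0.60 to -0.48), and Odf1, for an outer dense fibre protein, was at 240 and 345 CPM, or 0.52 (0.43 to 0.62). Among 33 axoneme genes, X-linked Ribc1 was higher (94 and 140 UMIs, 1.09) and Cfap70 lower (186 and 57 UMIs, -1.20), with a median of -0.11. These counts were near the shares of 4.45% and 1.21% over all genes.

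Perinuclear theca and nuclear envelope genes had 3 of 21 at least 2-fold higher, 0 lower and a median of -0.04, beside 4.45% and 1.21% of all genes. The 3 were the X-linked genes Cypt2, Cylc1 and Actrt1. Cylc1, for the basic theca protein cylicin-1, was at 495 and 1021 CPM (1.04, 0.99 to 1.10), while Cylc2, its counterpart on chromosome 4, was at 761 and 738 CPM (-0.04, -0.10 to 0.01). Actrt1, an actin-related theca gene, was at 82.8 and 168 CPM, and Actrt2 on chromosome 4 at 815 and 865 CPM. Ccin, for calicin, lay lowest at 187 and 128 CPM, or -0.54. In both pairs the X-linked gene had the higher ratio.

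Manchette genes had 0 of 30 at 2-fold (median -0.11), acrosome genes 0 of 36 (-0.13), spermatid kinases and phosphatases 0 of 16 (-0.15), sperm ion channels 0 of 11 (-0.01), spermatid transcription regulators 0 of 21 (-0.07) and ubiquitin and turnover genes 0 of 34 (-0.08). Hook1, a manchette linker gene, was at 1069 and 853 CPM, Crisp2, for an acrosomal and tail protein, at 2669 and 2771 CPM, and Tssk2, a spermatid kinase gene, at 1411 and 1294 CPM. Among 12 serine protease genes with a median of -0.03, Prss52 was at 418 and 551 CPM and only Try5 was past 2-fold, with 68 and 99 UMIs. The energy metabolism list (28 genes, median 0.04) had 1 call, Gapdh with 63 and 96 UMIs, while the sperm isoform gene Gapdhs stood at 1582 and 1622 CPM. Try5 and Gapdh were below 10 CPM in WT and passed the mean of 10 CPM only through KO. The 6 genes that the study related to spermatogenesis, Tssk6, H1fnt, Iqcf1, Akap4, Tnp1 and Prm2, had 0 calls and a median of -0.12, and the list was chosen by the study on these libraries.

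The list of RNA storage and translation genes held abundant transcripts that differed in both directions. Eif4e, for the cap-binding translation factor, had 8260 UMIs in WT and 3072 in KO, which are 1054 and 559 CPM and a log2 ratio of -0.92 (-0.98 to -0.86). Ybx1, for a Y-box RNA-binding protein, went the other way at 814 and 1214 CPM, or 0.58 (0.53 to 0.63). Gtsf1l, a relative of the piRNA factor Gtsf1, was at 320 and 167 CPM, or -0.94, but at -0.03 when z-scores were taken within each library. The list of 31 genes had a median of -0.07, with 1 gene past 2-fold, Dazl (62 and 192 UMIs), which also marks spermatogonia. Dazl was below 10 CPM in WT and passed the mean of 10 CPM only through KO.

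Of 23 genes of the m6A pathway 3 reached 10 CPM. For Fto, the other known m6A demethylase gene, WT gave 251 UMIs and KO 259 (32.0 and 47.1 CPM, log2 ratio 0.56, 0.30 to 0.81). Igf2bp3, for an RNA-binding protein that reads m6A, was at 353 and 252 CPM, or -0.49, and Hnrnpa2b1 at 18.2 and 31.3 CPM, or 0.78. The median of these 3 was 0.56, but 0.08 with barcodes that held no screening gene and 0.97 with z-scores within each library. In the cell death and stress list, 3 of 14 genes were at least 2-fold higher, namely the chaperone genes Hspa8 (28 and 91 UMIs), Hspa5 (120 and 214) and Hsp90b1 (140 and 224), with 0 lower and a median of 0.01, beside 4.45% and 1.21% of all genes. Hspa8, low in WT, passed the mean of 10 CPM only through KO. Mcl1, which encodes an inhibitor of apoptosis, was the lowest of that list at 69.9 and 35.1 CPM, or -0.99 (-1.24 to -0.76).

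**Figure D2:**
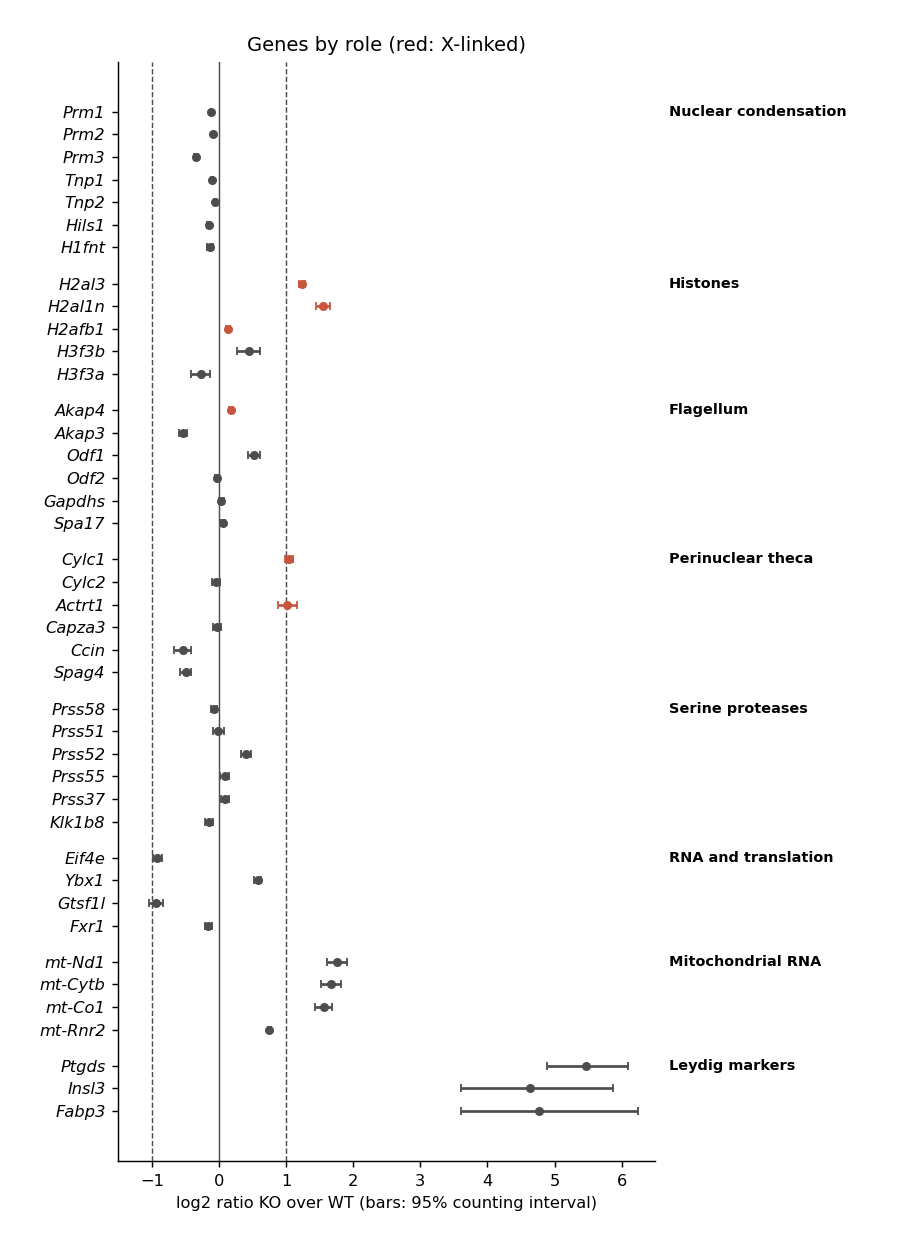
Log2 ratio of KO over WT in Prss58-stage spermatids for genes grouped by role, with 95% counting intervals as bars, X-linked genes in red and dashed lines at 2-fold. Protamine, transition protein and protease genes sit near 0, the X-linked genes H2al3, H2al1n, Cylc1 and Actrt1 sit between 1.02 and 1.55, and Ptgds lies at 5.46. The X-linked genes Akap4 and H2afb1 lie at 0.18 and 0.14. Tnp2, Prss58, Prss51 and Klk1b8 are genes of the stage sets, so their position partly restates the rule.

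The X chromosome stood apart from every autosome, a pattern singled out after the values were seen. Of 138 X-linked genes compared, 72 were at least 2-fold higher in KO (52.2%) and 0 lower, and 136 lay above 0, with counting intervals wholly above 0 for 130. Their median log2 ratio was 1.02. Some called genes, such as Gm40 (3.57 and 28.7 CPM) and Rpl10 (4.59 and 20.7 CPM), passed the mean of 10 CPM only through KO. Their calls partly follow from the filter. At a mean of 50 CPM, 43 of 73 X-linked genes were called, with a median of 1.05. Autosomal genes had a median of -0.02 with 2.62% called higher, and the medians of the 19 autosomes ran from -0.06 to 0.03. X-linked genes were thus 33.6% of the 214 calls.

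The difference was spread along the chromosome and over cells. The median was 0.97, 1.01, 1.10 and 1.05 in 4 equal stretches from the first bases on. X-linked UMIs were 2.74% (2.72 to 2.75) of all UMIs of the WT members and 5.22% (5.20 to 5.23) of those of the KO members, and 454 of 461 KO cells (98.5%) lay above 3.13%, the 95th percentile of WT cells. The median WT cell had 2.75% and the median KO cell 5.14%, so the cell populations hardly overlapped.

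**Figure D3:**
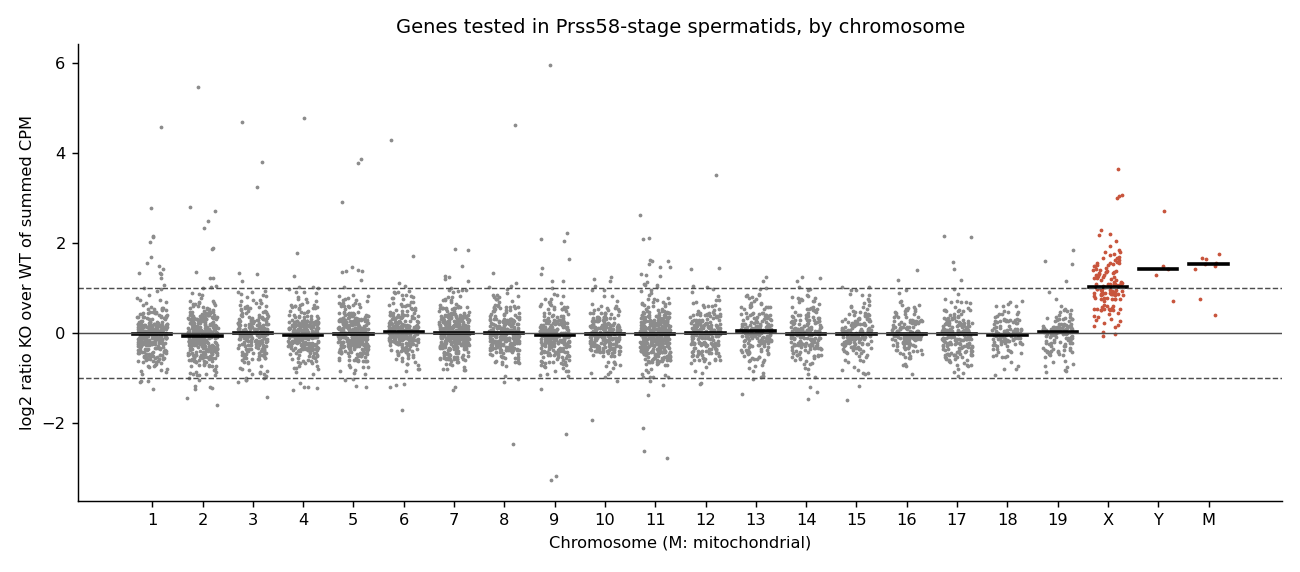
Log2 ratio of KO over WT for each of the genes compared in Prss58-stage spermatids, by chromosome; each dot is a gene, black bars are medians, and dashed lines mark 2-fold. The X median is 1.02, while the medians of the 19 autosomes lie between -0.06 and 0.03; Y and mitochondrial (M) genes are 5 and 9.

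X-linked genes differed in the size of their ratio, and those given here are abundant ones or lie among the highest or lowest ratios. For Cypt1, WT gave 21156 UMIs and KO 27699 (2699 and 5037 CPM, log2 ratio 0.90, 0.87 to 0.93) and Cypt3 had 12738 and 16184 UMIs (1625 and 2943 CPM, 0.86). Hypm had 8761 and 10435 UMIs (0.76), Ppp1r2-ps7 7811 and 9638 (0.81) and 1700010D01Rik 6754 and 11420 (1.27). The noncoding RNA genes 1700003E24Rik and BC061195 were at 301 and 1086 CPM (1.85, 1.78 to 1.92) and at 378 and 1193 CPM (1.66, 1.59 to 1.72). Among abundant genes with lower ratios, Akap4 and H2afb1 were at 0.18 and 0.14, Asb9, for an ankyrin-repeat adaptor of ubiquitin ligases, was at 524 and 668 CPM (0.35), the translation initiation factor gene Eif1ax at 175 and 240 CPM (0.45) and the peroxiredoxin gene Prdx4 at 919 and 1336 CPM (0.54). These 5 had counting intervals above 0, as had 130 of all 138 X-linked genes. Over all 138 the lowest ratio was that of Cstf2 (193 and 129 UMIs, -0.07, -0.40 to 0.26). The highest was that of Gm15091 (21 and 185 UMIs, 3.65), which at 2.68 CPM in WT passed the mean of 10 CPM only through KO.

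Among the X-linked genes, 57 carry clone-based or predicted names, and several belong to families of near-identical copies whose counts the alignment may have split. Of the other 81 genes, 35 were called higher, with a median of 0.95. In all, 101 of the 138 genes were less abundant in both the KO Leydig barcodes (those with Insl3 and Cyp17a1) and the KO spermatogonial barcodes than in the WT members, and of these 56 were called, 101 lay above 0 and the median was 1.04. The part of other cells' RNA in the X-linked ratios was not tested.

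X-linked genes were also above autosomal ones in the other stages, whose cells are different cells of the same libraries. The X median was 1.18 in stage F, 1.18 in H, 1.13 in I and 1.39 in J, against -0.04, 0.03, 0.06 and 0.24 on the autosomes. Before elongation it was 0.74 in B, 0.62 in C, 0.86 in D and 1.00 in E. Stage A stood out with an X median of 2.13, where X-linked UMIs were 0.205% in WT and 0.767% in KO. Its median cell had 0.0378% X-linked UMIs in WT and 1.32% in KO. Its autosomal genes had a median of -0.01 but 11.3% called higher, and Leydig markers were 0.0280% and 0.129% of UMIs. The median depth was 15725 UMIs in WT and 7710.5 in KO. Whether the WT and KO cells of stage A are alike was not tested. Of 5 Y-linked genes in the members 4 were called higher, beside 4.45% of all genes, with a median of 1.43 and 21 to 286 UMIs per gene and library. The gene with 21 UMIs, a WT sum below 10 CPM, passed the mean of 10 CPM only through KO. Its call partly follows from the filter.

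**Figure D4:**
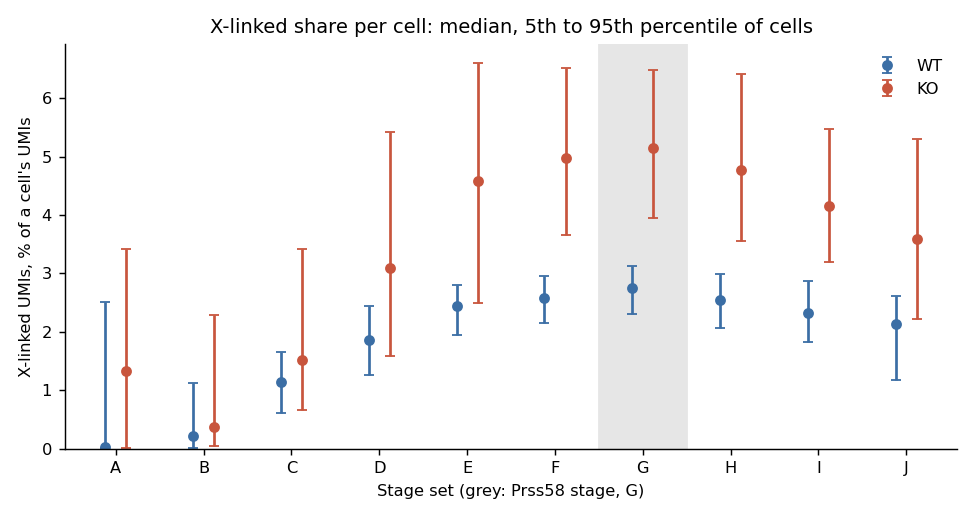
Share of each cell's UMIs from X-linked genes (%), by stage set, in WT (blue) and KO (red); points are medians over cells and bars run from the 5th to the 95th percentile of cells. In the Prss58 stage (grey) the medians are 2.75% and 5.14%, and the bars of WT and KO do not overlap.

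The Cypt genes allow X-linked and autosomal relatives to be set side by side. The family encodes cysteine-rich basic proteins of the perinuclear theca and has copies on the X chromosome and on chromosomes 9 and 3, and it was picked after the values were seen. The 250 bases before the RefSeq start of 5 members are shown on the transcript's strand, in GRCm38.p6. Any link between the upstream sequence and the ratios was not tested. Capitals mark the longest run that all 7 members in the table share.
Cypt1 (chrX:16522619-16522868, plus strand): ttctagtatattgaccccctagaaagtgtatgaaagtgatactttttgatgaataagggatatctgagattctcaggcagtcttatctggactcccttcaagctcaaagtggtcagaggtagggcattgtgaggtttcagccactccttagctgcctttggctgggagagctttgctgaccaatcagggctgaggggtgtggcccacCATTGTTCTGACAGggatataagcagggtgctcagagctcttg
Cypt2 (chrX:105499522-105499771, plus strand): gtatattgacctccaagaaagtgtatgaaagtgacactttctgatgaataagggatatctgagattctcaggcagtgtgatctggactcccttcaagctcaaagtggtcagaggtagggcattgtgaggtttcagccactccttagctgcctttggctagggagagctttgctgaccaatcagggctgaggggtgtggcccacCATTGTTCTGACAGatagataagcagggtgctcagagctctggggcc
Cypt4 (chr9:24624935-24625184, plus strand): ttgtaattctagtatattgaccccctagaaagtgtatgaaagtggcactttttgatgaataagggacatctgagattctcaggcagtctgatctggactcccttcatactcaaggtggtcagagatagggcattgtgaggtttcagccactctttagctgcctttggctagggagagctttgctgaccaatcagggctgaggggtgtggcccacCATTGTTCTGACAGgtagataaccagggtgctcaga
Cypt15 (chrX:39346016-39346265, plus strand): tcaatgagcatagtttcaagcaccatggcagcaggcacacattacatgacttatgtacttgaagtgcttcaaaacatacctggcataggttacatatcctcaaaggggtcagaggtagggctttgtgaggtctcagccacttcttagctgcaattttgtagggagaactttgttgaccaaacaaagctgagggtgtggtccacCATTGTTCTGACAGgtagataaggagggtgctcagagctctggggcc
Cypt12 (chr3:17948194-17948443, plus strand): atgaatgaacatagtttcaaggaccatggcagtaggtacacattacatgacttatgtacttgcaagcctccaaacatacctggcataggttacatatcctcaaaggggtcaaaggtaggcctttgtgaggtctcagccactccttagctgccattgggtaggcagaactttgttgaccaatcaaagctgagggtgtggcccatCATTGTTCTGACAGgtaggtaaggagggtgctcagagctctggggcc

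The shared run is CATTGTTCTGACAG, 14 bases that end 22 to 33 bases before the start. Read on both strands, it was in 7 of 32851 upstream windows of the same length (0.0213%), all of them of the Cypt family. The run was defined as what these 7 windows share, so its presence in them was fixed in advance. A given run of 14 bases is rare in such windows, so its absence elsewhere carries no weight. CCAAT was in 5 of the 7 family windows and in 33.8% of all windows, TATAAA in 0 of 7 and 12.4%, and the full cyclic AMP response element TGACGTCA in 0 of 7 and 1.55%. A match here is a description of letters and not of a bound site. Over a global alignment, Cypt4 shared 89.9% of aligned positions with Cypt1 and 86.6% with Cypt2, whereas Cypt12 shared 91.2% with Cypt15. Each autosomal copy was thus nearer to an X-linked copy than to the other autosomal one, with which it shared 66.7%.

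In this family the X-linked copies had the higher ratios. For X-linked Cypt2, WT gave 3736 UMIs and KO 8047 (477 and 1463 CPM, log2 ratio 1.62, 1.56 to 1.67), Cypt15 had 1825 and 4139 (233 and 753 CPM, 1.69, 1.61 to 1.77) and Cypt14 had 518 and 751 (66.1 and 137 CPM, 1.05). Autosomal Cypt12 had 33086 and 22670 UMIs (4222 and 4122 CPM, -0.03, -0.06 to -0.01) and Cypt4 had 20606 and 13672 (2629 and 2486 CPM, -0.08, -0.11 to -0.05). All 5 X-linked copies lay above both autosomal copies, and Cypt1 kept its difference along the stage, at 2535 and 5168 CPM in the cells next to F and 2763 and 5114 CPM in those next to H. Cypt4 moved to 0.57 when z-scores were taken within each library, below each X-linked copy there, which were 0.78 or more. Copies this alike may share reads, which the counting could have assigned to any of them.

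**Figure D5:**
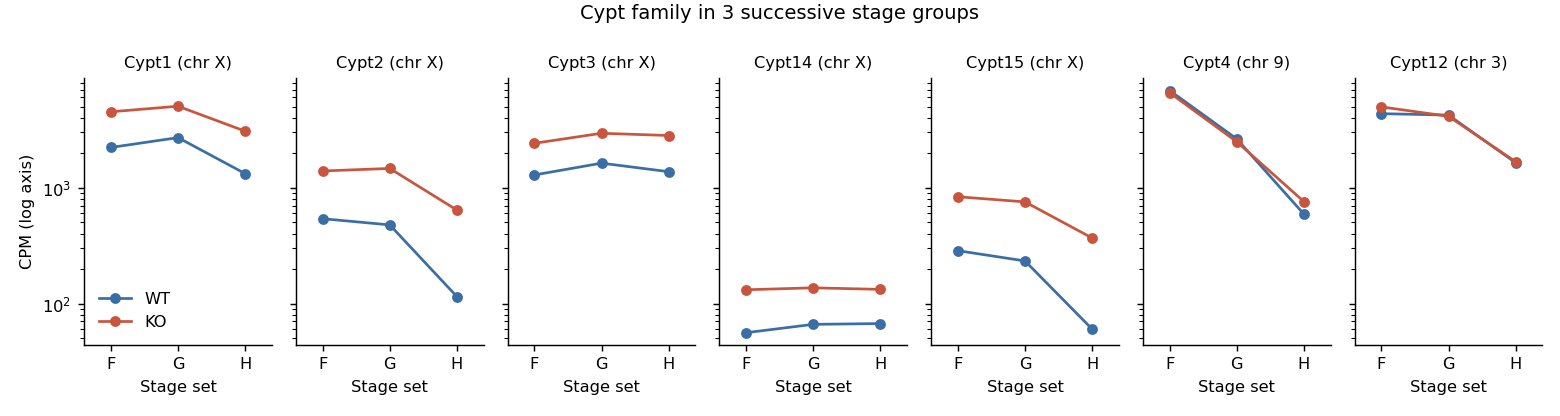
Level of 7 Cypt genes (CPM, log axis) in stages F, G and H in WT (blue) and KO (red). The 5 X-linked genes lie higher in KO in each of the 3 stages (in G from 0.86 to 1.69 on the log2 scale), while the lines of Cypt4 and Cypt12 run together in G at -0.08 and -0.03.

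Among the named genes outside the X chromosome, the highest ratio was that of a Leydig cell marker. Ptgds, a prostaglandin D synthase gene, gave 25 UMIs in WT and 773 in KO members (log2 ratio 5.46, 4.89 to 6.10). It was present in 3.39% (2.08 to 5.19) of WT and 27.1% (23.1 to 31.4) of KO members, against 34.4% of KO spermatogonial barcodes, which should lack it, and was at 2.61 when the Prss58 set had to lead by 0.5. Of 20 Leydig markers 5 reached 10 CPM and 4 were called, their summed level was 45.3 CPM in WT and 290 CPM in KO, and 4 were at 0 in WT and 1 in KO. Insl3, which defines Leydig cells, had 8 and 139 UMIs. Ptgds (3.19 and 141 CPM) and Insl3 (1.02 and 25.3 CPM) passed the mean of 10 CPM only through KO. Their calls and the list's median therefore partly follow from the filter. The list's median of 4.68 went to 1.66 with barcodes that held no screening gene, Insl3 being one of those.

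Markers of other cells differed by type. The 20 Sertoli markers summed to 22.8 CPM in WT and 103 CPM in KO, with 6 and 4 at 0, and the 20 spermatogonia markers to 50.1 and 98.2 CPM, with 0 and 1 at 0. The 19 macrophage and endothelial markers summed to 60.5 and 74.9 CPM, with 6 and 3 at 0, but the 2 that were compared had a median of -0.26 and 0 calls. C1qb, a complement gene of macrophages and one of the screening genes, gave 189 UMIs in WT and 80 in KO (-0.73, -1.13 to -0.34), and H2-Ab1, for an antigen-presenting protein, 236 and 192 (0.21, -0.07 to 0.49). Spermatocyte markers had 1 of 11 genes called, Sycp1 with 122 and 213 UMIs, and a median of 0.27. Of the 119 autosomal genes called higher, 72 (60.5%) were at least 2-fold more abundant in KO Leydig or spermatogonial barcodes than in the KO members, against 25.8% of autosomal genes not called. Among X-linked genes it was 4 of the 72 called and 10 of the 66 not called. The 142 calls outside X came down to 94 with barcodes that held no screening gene, while those on X were 72 and 76. The part of other cells' RNA in any single ratio was not tested.

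Mitochondrially encoded transcripts had 7 of 9 genes at least 2-fold higher, 0 lower and a median of 1.53, beside 4.45% and 1.21% of all genes. The ribosomal RNA mt-Rnr2 was at 2567 and 4323 CPM (0.75, 0.72 to 0.78), mt-Co1, for a subunit of cytochrome oxidase, at 97.0 and 286 CPM (1.56) and mt-Nd1, of complex I, at 61.8 and 209 CPM (1.76). The median cell had 0.330% mitochondrial UMIs in WT and 0.555% in KO. The median ratio of the 9 genes was 0.57 with barcodes that held no screening gene and 0.72 when the Prss58 set led by 0.5, and at 0.64 and 1.13 mt-Nd1 moved with it. Ribosomal protein genes had 8 of 76 called higher and 0 lower, 64 above 0 and a median of 0.29, with Rplp0 at 1278 and 1513 CPM.

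Among the other autosomal genes at 50 CPM or more, those with the highest ratios were Lcn2, for the secreted protein lipocalin-2 (113 and 518 UMIs, 2.71, or 1.95 with barcodes that held no screening gene), Romo1, for a mitochondrial membrane protein (159 and 558, log2 ratio 2.32, 2.07 to 2.59), Nmnat3, for a mitochondrial enzyme of NAD synthesis (171 and 507, 2.08, 1.83 to 2.34), and Mrgprb8, a receptor gene (172 and 442, 1.87). Lcn2, Romo1, Nmnat3 and Mrgprb8 were below 50 CPM in WT and passed that mean only through KO. Their place among the highest ratios therefore partly follows from the filter. Romo1 was at 2.41 and 2.10 and Nmnat3 at 2.67 and 2.41 in stages F and H, so the neighbouring stages had ratios of the same direction and similar size. Smco2 was at 63.2 and 207 CPM in the members (1.72) and at 2.97 in stage H, and Cd3d, known as a T cell receptor subunit gene, at 59.5 and 186 CPM (1.64).

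The lowest ratio belonged to 1700063D05Rik, a long noncoding RNA gene on chromosome 9, where WT gave 1207 UMIs and KO 88 (154 and 16.0 CPM, log2 ratio -3.27, -3.60 to -2.95). It was at -4.09 when the Prss58 set had to lead by 0.5. Gm10638 had 1874 and 239 UMIs (-2.46, -2.66 to -2.27). It overlaps Siah1a on the opposite strand, so its counts are uncertain. Siah2, for an E3 ubiquitin ligase, was at 121 and 58.7 CPM (-1.05), Tmem64, for a transmembrane protein, at 106 and 48.9 CPM (-1.12), and the antisense gene 1700108N11Rik at 88.0 and 43.8 CPM (-1.01). These 5 were the only genes of at least 50 CPM that were 2-fold lower. All but Siah2 were below 50 CPM in KO and passed that mean only through WT.

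Several others came close to 2-fold lower with tight intervals. Guk1, for guanylate kinase, was at 177 and 89.8 CPM (-0.98, -1.13 to -0.83), Ndufs6, for a subunit of complex I, at 93.1 and 47.1 CPM (-0.98), Rpl29 at 178 and 91.6 CPM (-0.96, against the median of 0.29 of its list) and Fam78a at 361 and 189 CPM (-0.94). Chrne, for a subunit of the acetylcholine receptor, was at 150 and 76.6 CPM (-0.97) but at -0.25 with z-scores within each library. The ratios of 1700063D05Rik were -3.96 and -2.82 and those of Gm10638 -2.38 and -2.42 in stages F and H, so both were low in the neighbouring stages too.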

How the data were processed

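The authors made the single-cell libraries with the GEXSCOPE kit and, per the labels and the study's methods, trimmed reads (fastp), aligned them (STAR 2.5.3a is listed) and counted UMIs per gene and barcode (featureCounts 1.6.2). The text names a human build with Ensembl annotation although the deposited symbols are those of mouse, and whether counting used strand is not given in the sources used here. The deposited values are raw UMI counts, 1 table per library with 32162 genes in WT and 34994 in KO, and a gene missing from a table was taken as 0. Every barcode had over 500 genes, the study's stated minimum (lowest 564 and 833), so all were kept, and the study itself kept somewhat fewer.

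Per gene, ln(1 + UMIs per 10000) was turned into z-scores over the 9669 screened barcodes of both libraries, averaged over each 3-gene set, and a cell was assigned to its highest set. The members and the gene lists were chosen with earlier results of these data known. UMIs of the members were summed per library (7837319 in WT, 5499615 in KO) and given as CPM. Log2 ratios have exact conditional intervals, shares have Clopper-Pearson intervals, and a sum of 0 was taken at 3 counts. A gene was compared at a mean of 10 CPM and called at 2-fold. A gene far below 10 CPM in 1 library passed that mean only through the other, which fixed its call. No count model was fitted, as each genotype has 1 library.

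Genes named in the text are the stage, screening and targeted genes, list members (the 3 most abundant, the 3 with the largest ratio and those a sentence is about), the 10 most abundant, the 15 highest over both neighbouring stages, the 15 highest and 15 lowest ratios at 50 CPM or more, and the 10 with the largest fold in each direction along the stage. X-linked genes and the Cypt family were added after their values were seen. Positions came from GENCODE vM21 by symbol (35501 of 36547 genes placed), and upstream sequences from RefSeq (GRCm38.p6), where all 7 Cypt genes were found. Doublets were called per library with Scrublet (scanpy 1.11.5, expected rate 0.06, 30 components). Python 3.11.15, numpy 2.4.6, scipy 1.17.1 and Biopython 1.88 were used, and the summing and ratio steps were checked on made-up counts with known changes. Alternatives changed the doublets, the lead of the set, the scope of z-scores, the screen, the minimum of genes, the totals, the weights, the depth, the filter and the fold.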

Additional observations from a re-analysis of the deposited data

How the results depend on the processing

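No paired analysis was possible because each genotype has 1 library, and for the same reason no library could be left out. No gene or list median past 2-fold changed sign, whereas 19 of 98 named genes and 12 of 25 list medians, all smaller than that, did so in at least 1 alternative. With z-scores within each library, the median of the acrosome list went from -0.13 to 0.13, that of RNA storage from -0.07 to 0.15, and Acrv1 from -0.22 to 0.38. When the Prss58 set led by 0.5, macrophage and endothelial markers went from -0.26 to 0.57 and Spaca1 from -0.86 to 0.98. The share of members was 2.65% in WT and 2.92% in KO when the Prss58 set had to lead by at least 0.5. It was 10.1% in WT and 10.7% in KO with no screening gene detected, and 11.4% and 9.51% with z-scores within each library. Genes at least 2-fold higher and lower in KO numbered 3819 and 1266 with no filter on low counts (23051 genes compared), 62 and 5 at a mean of 50 CPM (2003 compared), and 505 and 325 at a ratio of 1.5, which follow from comparing more or fewer genes or asking for less. Genes lower were 154 when the set had to lead by 0.5, which leaves 143 WT and 125 KO cells. Otherwise 170 to 273 genes were higher and 39 to 79 lower. Of the gene lists, 5 had a median of at least 0.5 in size, and 2 with no screening gene detected. The X-linked calls, added after seeing the data, were 383 with no filter, 43 at 50 CPM and 113 at a ratio of 1.5, and 69 to 82 otherwise, with an X median of 0.70 with no filter and 1.00 to 1.12 otherwise. Of 24 named genes called at 2-fold, 7 came under it in at least 1 alternative: 1700108N11Rik, Cypt14, Insl3, Siah2, Tmem64, mt-Cytb and mt-Nd1. Of 1078 values of named genes 141 moved by more than their counting interval, and of 273 list medians 21 did. The cause was not tested. The depth of the sums limits genes near 10 CPM, which rest on about 100 UMIs or fewer.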
